A study of Mus musculus with 2 samples.

Results

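The 10 genes described here, Toll-like receptors that sense nucleic acids and the proteins they work with, were followed across the cell classes of 2 single-cell libraries from MRL-lpr mouse kidney. They were Tlr3, Tlr7, Tlr8, Tlr9 and Tlr13 (5 endosomal receptors), Tlr2 and Tlr4 (2 surface receptors), and Unc93b1, Myd88 and Irf5 (3 genes for a chaperone, an adaptor and a transcription factor). The 10 rows were taken by gene symbol from the 31053 gene rows of both count tables, and all 10 were present.

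Toll-like receptors of the endosome bind RNA or DNA that a cell has taken up, whereas TLR2 and TLR4 sit at the cell surface and bind microbial lipoproteins and lipopolysaccharide. UNC93B1 carries the endosomal receptors out of the endoplasmic reticulum. MYD88 couples all of these receptors except TLR3 to kinases that activate NF-kB and interferon regulatory factors, among them IRF5. TLR7 and TLR9 are known for their part in the responses to self RNA and DNA in lupus, and plasmacytoid dendritic cells and B cells are the cells in which both are usually found.

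Both libraries came from MRL-lpr mice, a strain in which the Fas gene carries the lpr mutation and which develops lupus with kidney inflammation, so no library without the mutation serves as a control here. One library was young (5 to 8 weeks per the study's methods) and the other old (over 16 weeks). Each was made from kidneys that were pooled, dissociated, run on a density gradient, passed through a kit that enriches innate lymphoid cells (ILCs) and sorted for live cells, so the sizes of the classes depend on the sort and are not compared between ages. With 1 library per age there was no replicate, and no test between ages was possible.

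The young library held 15076 barcodes and the old one 12622, of which 11429 and 10232 passed the filters of 200 genes or more and no more than 20% mitochondrial UMIs (unique molecular identifiers, 1 per captured transcript). The kept cells carried a median of 7881 UMIs in young and 6933 in old, and 26 of the kept barcodes occurred in both libraries. The methods give female mice for both ages, but 50.8% of young and 40.6% of old cells held UMIs of Y-linked genes and none of Xist, against 14.6% and 29.1% with Xist alone, so both libraries held cells of both kinds and X-linked members are given for each kind below.

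Cells were put into classes by UMIs of at least 3 genes of a marker list, with 1 defining gene among them (5 genes and a minimum share of UMIs for the proximal tubule), and each class is called "like" its cell type. The largest class in young was proximal tubule-like with 6333 cells (3428 in old), and ILC2-like cells numbered 1248 in young and 290 in old. T-like cells numbered 654 and 4024, and 511 young and 725 old cells that passed more than 1 class gate were kept apart as mixed, while 1193 and 618 passed none. Plasmacytoid dendritic-like cells (74 and 44), macrophage-like (79 and 46), monocyte-like (170 and 296), neutrophil-like (163 and 159) and B-like cells (340 and 153) hold most of what follows. When all cells were clustered, 10 of the young and 40 of the old macrophage-like cells lay in monocyte clusters. Conventional dendritic-like cells numbered 41 in young and only 5 in old, and endothelial-like cells 281 and 17, so those old classes are under the 20 cells asked of a class.

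Levels are in CPM, that is, a gene's UMIs in all cells of 1 class and library per 1000000 UMIs of the same cells. Intervals are exact 95% Poisson intervals for levels and exact binomial intervals for shares and ratios. They cover counting error only, and they do not describe how much mice differ. The counts come from the 3′ end of transcripts, so levels are compared between classes for 1 gene and never between genes.

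The promoters of 4 receptors are shown because the levels of these genes separate the classes described below. Tlr2, Tlr13 and Tlr8 had their highest levels in monocyte-like, neutrophil-like and macrophage-like cells, and Tlr3 in conventional dendritic-like and kidney epithelial cells. Each stretch runs from 250 bases before to 50 bases after the transcript start, 5′ to 3′ on the gene's strand, from RefSeq on GRCm38.p6. Capitals mark matches to GAGGAA, a letter string of the kind ETS factors such as PU.1 bind, on either strand.

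Tlr2: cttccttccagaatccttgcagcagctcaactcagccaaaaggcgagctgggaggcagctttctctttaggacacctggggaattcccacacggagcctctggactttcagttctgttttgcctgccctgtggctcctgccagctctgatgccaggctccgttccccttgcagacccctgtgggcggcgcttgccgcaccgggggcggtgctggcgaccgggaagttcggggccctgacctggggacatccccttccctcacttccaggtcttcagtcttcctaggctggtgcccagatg
Tlr13: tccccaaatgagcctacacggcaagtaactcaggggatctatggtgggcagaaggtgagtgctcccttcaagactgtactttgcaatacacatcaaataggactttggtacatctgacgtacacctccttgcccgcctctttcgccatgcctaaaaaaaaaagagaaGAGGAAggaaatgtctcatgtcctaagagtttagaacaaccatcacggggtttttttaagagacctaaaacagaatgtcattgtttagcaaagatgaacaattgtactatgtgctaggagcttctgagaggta
Tlr8: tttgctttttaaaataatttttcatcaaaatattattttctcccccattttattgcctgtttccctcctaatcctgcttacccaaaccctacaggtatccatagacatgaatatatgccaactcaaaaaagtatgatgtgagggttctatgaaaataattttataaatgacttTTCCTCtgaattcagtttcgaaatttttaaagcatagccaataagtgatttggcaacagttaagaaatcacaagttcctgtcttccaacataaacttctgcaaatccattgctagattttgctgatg
Tlr3: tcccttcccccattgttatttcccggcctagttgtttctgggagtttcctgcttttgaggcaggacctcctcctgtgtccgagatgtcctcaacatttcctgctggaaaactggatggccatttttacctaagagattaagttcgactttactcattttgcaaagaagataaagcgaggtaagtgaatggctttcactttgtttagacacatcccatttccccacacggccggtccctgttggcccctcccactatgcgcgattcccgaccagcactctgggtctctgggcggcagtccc

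The stretches lie at chr3:83841559-83841858 on the minus strand (Tlr2), chrX:106143025-106143324 on the plus strand (Tlr13), chrX:167264280-167264579 on the minus strand (Tlr8) and chr8:45410331-45410630 on the minus strand (Tlr3). GAGGAA starts at -83 from the Tlr13 start and at -77 from the Tlr8 start and does not occur in the Tlr2 and Tlr3 stretches, while 28.3% of the 27025 RefSeq promoters of the same length hold it. Among the 7 members with an entry in the promoter table, Tlr9 had 2 such matches, and Myd88 and Irf5 had none. A match is a description of letters and not a measured binding site. In the GENCODE annotation of the same build the genes of Tlr7 (chrX:167304929-167330558) and Tlr8 (chrX:167242696-167264329) lie 40.6 kb apart on the X chromosome, which also carries Tlr13 (chrX:106143204-106160493).

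**Figure D1:**
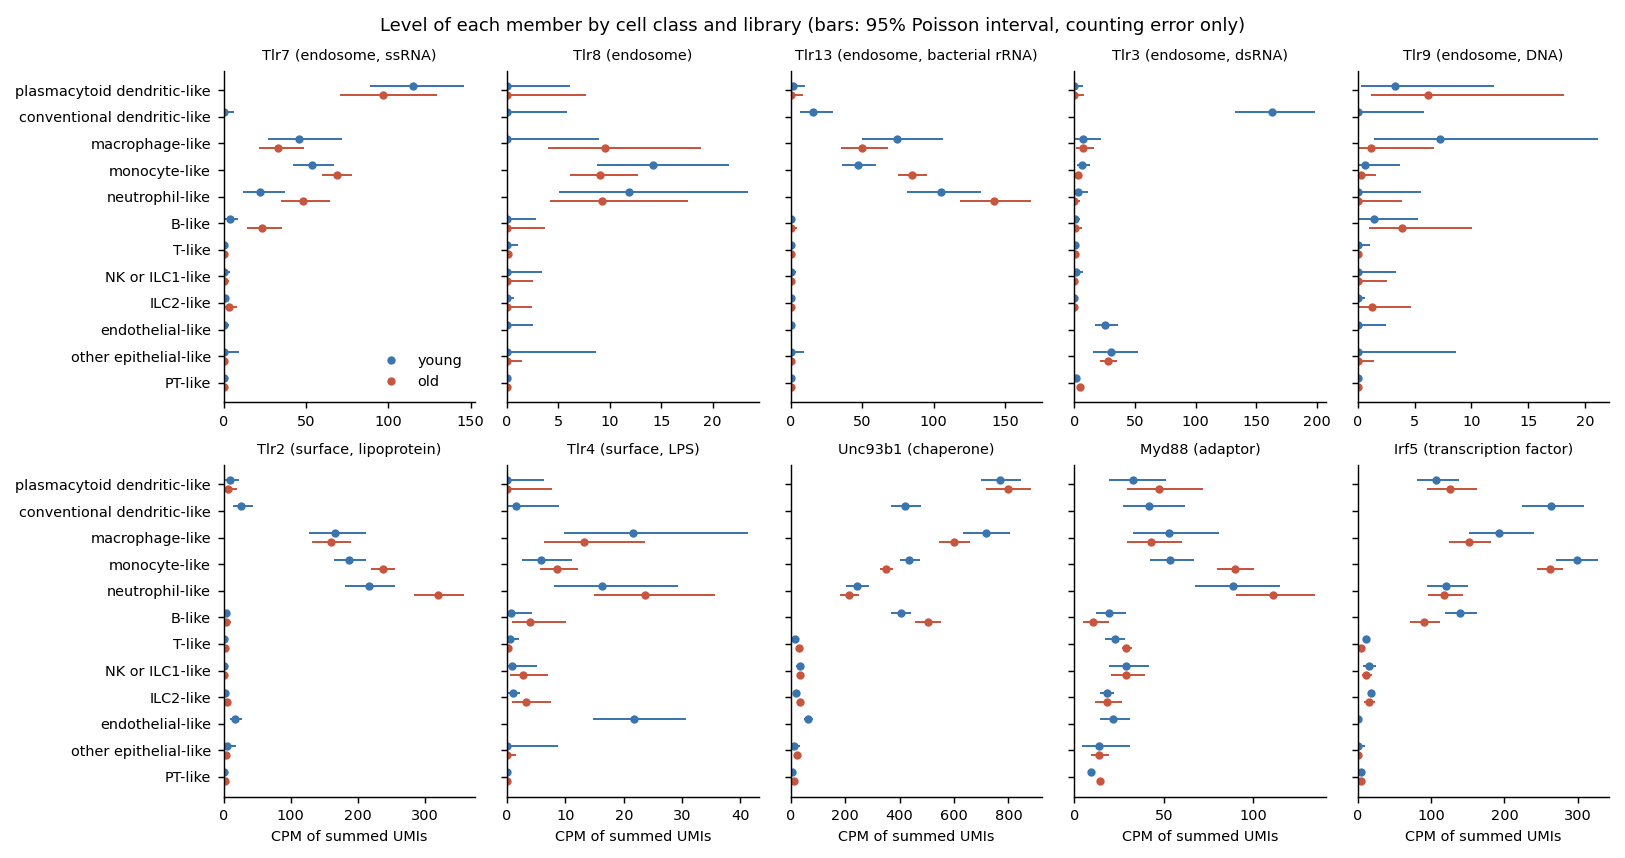
Each panel shows 1 member, with the level in CPM of summed UMIs on a linear x axis and the cell classes on the y axis, young in blue and old in red, bars giving 95% Poisson intervals for counting error. Tlr7 was highest in plasmacytoid dendritic-like cells (115 CPM young, 96.8 old), Tlr13 and Tlr2 in neutrophil-like cells (105 and 142 CPM, and 216 and 319.5 CPM), and Tlr3 in young conventional dendritic-like cells (163 CPM), and classes under 20 cells in a library are not drawn.

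Tlr7, the receptor for single-stranded RNA, had its highest level in plasmacytoid dendritic-like cells of both libraries. The level there was 115 CPM (89.8 to 146, 70 UMIs) in young and 96.8 CPM (71.2 to 129, 47 UMIs) in old. Monocyte-like cells followed with 53.5 CPM (42.6 to 66.3) in young and 68.6 CPM (60.5 to 77.5) in old, intervals that lie below those of the plasmacytoid class in young and overlap it in old. Macrophage-like cells held 45.7 CPM in young and 33.3 CPM in old. The 41 young conventional dendritic-like cells, with a median of 15322 UMIs each, held no Tlr7 UMI, which allows up to 4.66 CPM. Of these cells 35 held Xcr1, a marker of a subset of conventional dendritic cells, and 6 did not. For those 6 cells the exact Poisson interval of Tlr7 reached 57.2 CPM, so the 0 mainly describes cells with Xcr1.

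A Tlr7 UMI was seen in 51.4% of young and 54.5% of old plasmacytoid dendritic-like cells, and after every cell was thinned to 1000 UMIs in 16.4% and 6.98%. In proximal tubule-like cells, a class not expected to make Tlr7 and the deepest of the large classes at medians of 14588 and 15064 UMIs, 0.0316% of young and none of the 3428 old cells held one. For the old cells the count of 0 allows a share of up to 0.0875%.

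Tlr8, a receptor for RNA breakdown products whose ligands are less well defined in the mouse, was measured on 31 UMIs in young and 62 in old. It was found in monocyte-like cells at 14.2 CPM (8.88 to 21.5) in young and 9.04 CPM (6.26 to 12.6) in old, and in neutrophil-like cells at 11.8 and 9.25 CPM. Macrophage-like cells had none in young, which allows up to 7.21 CPM, and 9.52 CPM (4.11 to 18.8, 8 UMIs) in old. Of these 8 UMIs, 7 lay in the 40 old macrophage-like cells in monocyte clusters and 1 in the macrophage cluster. The intervals of the monocyte-like, neutrophil-like and macrophage-like classes overlapped in old. Plasmacytoid dendritic-like cells had none in either library, which allows up to 4.94 CPM in young and 6.18 CPM in old. The neighbouring gene Tlr7 was thus highest in a class in which Tlr8 was not detected.

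Tlr9, the receptor for unmethylated DNA, was close to the limit of detection, with 10 UMIs among all 11429 young cells and 20 among all 10232 old cells. Plasmacytoid dendritic-like cells held 2 of them in young and 3 in old, B-like cells 2 and 4, and macrophage-like cells 3 and 1. In old, 6 of the 20 lay in mixed cells. No order of classes can be read from these counts.

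Tlr13, which binds bacterial ribosomal RNA, was measured in neutrophil-like cells at 105 CPM (82.1 to 133) in young and 142 CPM (119 to 168) in old. Macrophage-like cells held 74.6 and 50 CPM, and monocyte-like cells 47.0 CPM (36.9 to 59.1) in young and 84.5 CPM (75.5 to 94.4) in old. No Tlr13 UMI was seen in the ILC2-like or B-like cells of either library, and the young plasmacytoid dendritic-like cells held 1. The gene was therefore found in phagocytes and, at 15.5 CPM (7.45 to 28.6) in young, in conventional dendritic-like cells.

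Tlr3, the receptor for double-stranded RNA, had another distribution. The 41 young conventional dendritic-like cells held 163 CPM (133 to 197), and 78.0% of them had a UMI. All 105 of these UMIs lay in the 35 cells that also held Xcr1, a marker of type 1 conventional dendritic cells, while the 6 cells without Xcr1 had none, which allows up to 46.5 CPM. The 5 old cells, all with Xcr1, held 20 UMIs. Next in young came epithelial-like cells of the distal nephron and collecting duct with 30.3 CPM (16.1 to 51.7) in young and 27.5 CPM (21.7 to 34.5) in old, and young endothelial-like cells with 25.6 CPM (18.2 to 35.0). Macrophage-like cells held 7.21 and 7.14 CPM and monocyte-like cells 6.44 and 2.92 CPM, each on 11 UMIs or fewer. Proximal tubule-like cells had low levels but, being many, held 182 of the 402 young and 291 of the 516 old UMIs. In plasmacytoid dendritic-like cells Tlr3 was at 0 in both libraries.

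Tlr2 followed the phagocytes. Neutrophil-like cells held 216 CPM (182 to 254) in young and 319.5 CPM (285 to 357) in old, monocyte-like cells 188 and 237 CPM, and macrophage-like cells 166 and 159.5 CPM. The next class in young was conventional dendritic-like at 26.4 CPM (15.4 to 42.3), and no interval of the 3 phagocyte classes overlapped it.

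Tlr4, the receptor for lipopolysaccharide, had 97 UMIs in young and 147 in old. Neutrophil-like cells held 16.3 and 23.6 CPM, macrophage-like cells 21.6 and 13.1 CPM, monocyte-like cells 5.80 CPM (2.65 to 11.0) and 8.51 CPM, and young endothelial-like cells 21.7 CPM (14.9 to 30.4). In young the endothelial interval overlapped those of the neutrophil-like and macrophage-like classes and lay above that of the monocyte-like class. No proximal tubule-like cell had a Tlr4 UMI, which allows up to 0.0271 CPM in young and 0.0485 CPM in old.

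Unc93b1, the chaperone, was detected in lymphoid, myeloid, epithelial and endothelial classes, with 0 UMIs in the 75 young erythroid-like cells. Plasmacytoid dendritic-like cells were highest with 770 CPM (702 to 843) in young and 797 CPM (720 to 881) in old, and 97.3% and 97.7% of the cells held a UMI. Macrophage-like cells held 717 CPM (637.5 to 803) in young, an interval that overlaps that of the plasmacytoid class, and 600 CPM in old. The 6 old macrophage-like cells in the macrophage cluster held 1161 CPM (826 to 1588, 39 UMIs). The 40 in monocyte clusters held 577 CPM (525 to 631.5). Monocyte-like cells held 436 and 351 CPM, B-like cells 405 and 505 CPM and young conventional dendritic-like cells 421 CPM. Lymphoid cells other than B cells were far lower, with 18.7 and 36.1 CPM in ILC2-like and 15.3 and 29.1 CPM in T-like cells.

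Myd88, the adaptor, was highest in neutrophil-like cells at 88.8 CPM (67.8 to 114) in young and 111 CPM (91.0 to 134) in old, and stood at 9.61 CPM (9.04 to 10.2) and 14.3 CPM (13.3 to 15.2) in proximal tubule-like cells. Irf5 was highest in monocyte-like cells with 298 CPM (272 to 327) in young and 262 CPM (246 to 279) in old, and it was present in young conventional dendritic-like cells at 264 CPM and in B-like cells at 140 and 90.4 CPM. The intervals of young monocyte-like and conventional dendritic-like cells overlapped for Irf5.

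The study asked among other things whether ligands of TLR7 and TLR9 act on ILC2s, so the members were examined in those cells in full. ILC2-like cells held 5 Tlr7 UMIs in 5 of 1248 young cells and 5 in 5 of 290 old cells, which is 0.721 CPM (0.234 to 1.68) and 3.16 CPM (1.03 to 7.39). The shares were 0.401% (0.130 to 0.932) and 1.72% (0.562 to 3.98), at medians of 5208 and 5542 UMIs. After thinning to 1000 UMIs no ILC2-like cell kept a Tlr7 UMI in either library. The cells with one had totals of 5118 to 8498 UMIs in young and 4173 to 7922 in old. Thinning removes most single UMIs at such depths, so nothing is read from this 0. T-like cells, which were slightly shallower, had shares of 0.306% and 0.199%.

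The 10 ILC2-like cells with Tlr7 held 1 such UMI each. None was called a doublet, none held a UMI of the C1q genes, Siglech or the B cell genes searched, and 1 old cell held Lyz2, a myeloid gene. When all cells were clustered, 4 of the 5 young and all 5 of the old cells with Tlr7 lay in ILC2 clusters. Tlr9 was at 0 in young ILC2-like cells, which allows up to 0.433 CPM, and in old it had 2 UMIs in 1 cell. Tlr8 and Tlr13 were at 0 in both libraries, Tlr3 had 1 UMI in young, Tlr4 had 7 and 5 UMIs, and Tlr2 had 12 UMIs (1.73 CPM) and 8 UMIs (5.06 CPM).

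The adaptor and the transcription factor were measured on more UMIs in ILC2-like cells. Myd88 stood at 18.2 CPM (15.1 to 21.6) in young and 18.36 CPM (12.3 to 26.4) in old, and Irf5 at 17.9 CPM (14.9 to 21.3) and 15.2 CPM (9.73 to 22.6). Irf5 in ILC2-like cells was 1.87 log2 units (1.202 to 2.48) above proximal tubule-like cells in old and 2.002 (1.71 to 2.29) in young. Against T-like cells Irf5 was 0.66 log2 units higher (0.15 to 1.203) in young and 1.78 higher (1.07 to 2.43) in old.

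A difference of at least 2-fold with at least 30 UMIs over both sides is called here, as a size and not as a test. Between ILC2-like and T-like cells 13.7% of all genes were called in young and 24.8% in old, against 0 of 3 members with enough UMIs in young and 2 of 4 in old (Irf5 and Tlr2). Between ILC2-like and proximal tubule-like cells the shares were 56.6% and 56.3% of all genes, and 4 of 5 members were called in each library, with Tlr2, Unc93b1 and Irf5 higher and Tlr3 lower in ILC2-like cells. Macrophage-like and monocyte-like cells differed in 20.2% of genes in young and 17.9% in old, with 0 of 6 members called in young and 2 of 8 in old. Those were Tlr7 at -1.04 (-1.66 to -0.48) and Myd88 at -1.07 (-1.61 to -0.57) on the log2 scale, both lower in macrophage-like cells. Of the 46 old macrophage-like cells, however, 40 lay in monocyte clusters when all cells were clustered, against 10 of 79 in young.

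Plasmacytoid dendritic-like and B-like cells differed in 26% of genes in young and 25.9% in old. Tlr7 was called in both, being 4.99 log2 units (3.70 to 6.66) higher in plasmacytoid cells in young and 2.05 (1.32 to 2.83) in old. Unc93b1 was 0.93 (0.75 to 1.11) and 0.66 (0.47 to 0.85) log2 units higher there, which is less than 2-fold. Myd88 was called in old only, at 2.15 (1.05 to 3.33), beside 0.75 (-0.16 to 1.64) in young.

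**Figure D2:**
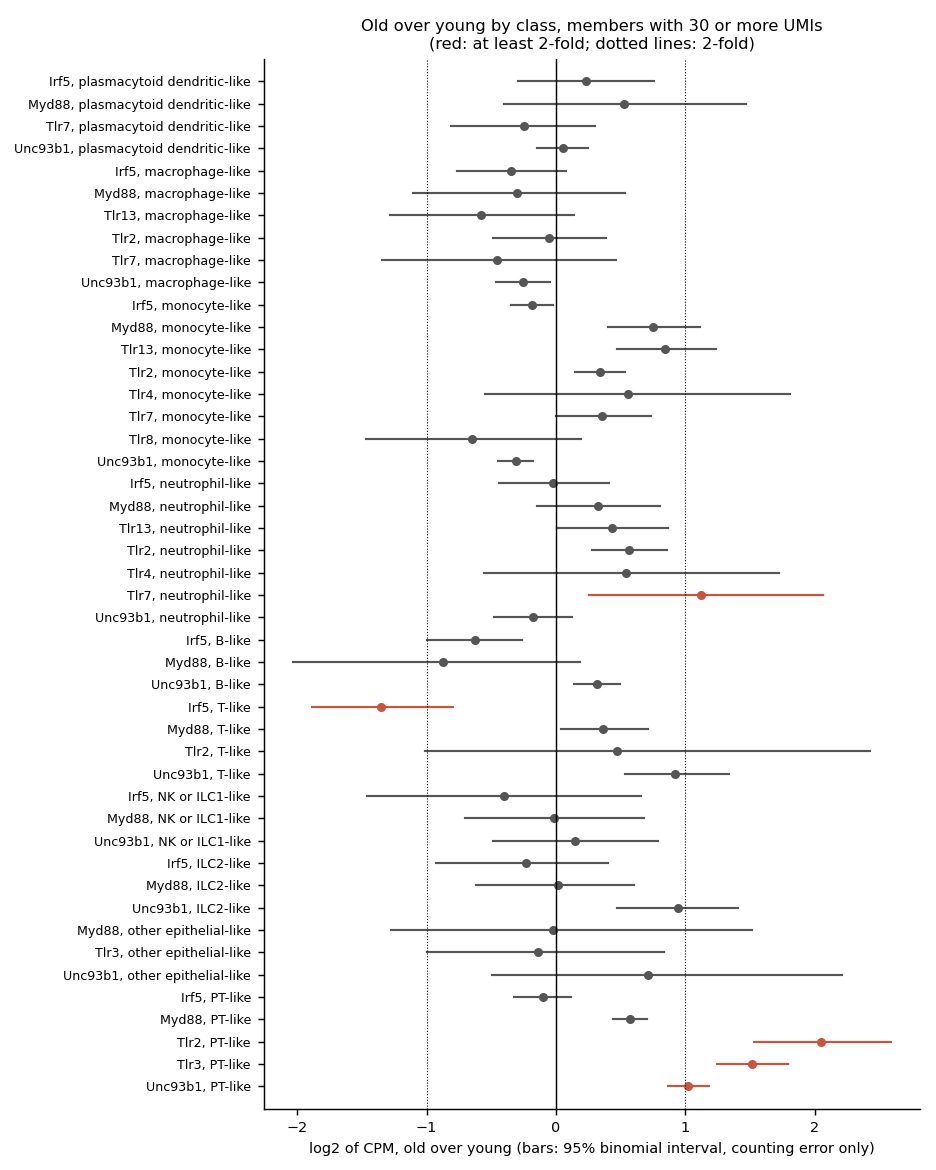
The x axis gives log2 of the CPM of old over young for each pair of member and class with 30 or more UMIs over both libraries, bars are 95% binomial intervals for counting error, and dotted lines mark 2-fold. The pairs in red, at least 2-fold apart, are Tlr2 (2.05), Tlr3 (1.52) and Unc93b1 (1.02) in proximal tubule-like, Tlr7 (1.12) in neutrophil-like and Irf5 (-1.35) in T-like cells.

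Between ages, 5 pairs of member and class were at least 2-fold apart. All genes set the scale for this. The share called was 7.84% in ILC2-like, 15.1% in T-like, 6.81% in NK or ILC1-like, 9.24% in B-like, 20.6% in macrophage-like, 9.61% in monocyte-like, 11.4% in neutrophil-like, 3.28% in plasmacytoid dendritic-like, 7.89% in proximal tubule-like and 13.1% in other epithelial-like cells. No member was called in ILC2-like, NK or ILC1-like, B-like or other epithelial-like cells, where 3 members each had enough UMIs. None was called among 6 in macrophage-like, 8 in monocyte-like and 4 in plasmacytoid dendritic-like cells. No receptor had enough UMIs in ILC2-like, NK or ILC1-like and B-like cells, so none could be called there. In ILC2-like cells, below that minimum, the ratios were 2.13 (0.01 to 4.25) for Tlr7, 1.55 (0.05 to 2.96) for Tlr2 and 1.65 (-0.35 to 3.52) for Tlr4. In neutrophil-like cells 1 of 7 members was called, beside 11.4% of all genes, and in T-like cells 1 of 4, beside 15.1%. With 3 members of 5 called, proximal tubule-like cells had the most.

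In proximal tubule-like cells, the reabsorbing epithelium of the kidney, Tlr2 stood at 0.407 CPM in young and 1.68 CPM in old, a log2 ratio of 2.05 (1.53 to 2.59). Tlr3 stood at 1.65 and 4.70 CPM, a ratio of 1.52 (1.24 to 1.79), and 2.65% of young and 7.18% of old cells held a UMI of it. Unc93b1 stood at 5.65 and 11.5 CPM, a ratio of 1.02 (0.87 to 1.18). In cells with Xist alone the ratios of Tlr2 and Unc93b1 were 0.71 and 0.86, below 2-fold, and that of Unc93b1 was also below it with at most 10% mitochondrial UMIs (0.98) and with the mean of the cells' own CPM (0.92). Myd88 was 0.57 (0.44 to 0.70) higher and Irf5 differed by -0.10 (-0.33 to 0.12). Median depth of the class was nearly equal in the 2 libraries.

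Markers of other cells were measured in the same barcodes. The 9 monocyte markers summed to 61.7 CPM in young and 78.2 CPM in old, of which Ace gave 39.6 CPM in young and Plac8 43.7 CPM in old. Without the highest gene of each library they summed to 22.1 and 34.4 CPM. The 7 neutrophil markers summed to 3.47 CPM in young and 6.40 CPM in old, led by S100a9, and their part in the Tlr2 value was not tested. The 7 macrophage markers summed to 7.69 and 4.41 CPM, with Adgre1 at 0 in young. The 7 T cell markers summed to 9.19 and 23.9 CPM. Leaving out cells with a UMI of Ptprc, the pan-leukocyte gene, gave 2.06 (1.54 to 2.60) for Tlr2, 1.52 (1.24 to 1.80) for Tlr3 and 1.03 (0.87 to 1.19) for Unc93b1. The 129 young and 136 old cells left out held few of the UMIs (Tlr2 0 and 2, Tlr3 4 and 13, Unc93b1 13 and 27). Leaving them out could therefore change these values little, and leukocyte RNA in cells without a Ptprc UMI was not tested.

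Vcam1, an adhesion molecule that injured proximal tubule cells are known to make, split the class unevenly for Tlr2. In old, 57 of the 104 Tlr2 UMIs lay in the 152 cells with a Vcam1 UMI, at 16.7 CPM (12.6 to 21.6), against 0.804 CPM (0.591 to 1.07) in the 3276 cells without. In young the 64 cells with Vcam1 held 3 Tlr2 UMIs, at 1.82 CPM (0.375 to 5.32). Without the Vcam1 cells the old over young ratio of Tlr2 was 1.06 (0.43 to 1.70) in place of 2.05, whereas Tlr3 kept 1.47 (1.19 to 1.76) and Unc93b1 had 0.94 (0.78 to 1.105), just under 2-fold. In old, Unc93b1 was 0.95 (0.58 to 1.303) and Tlr3 0.75 (0.11 to 1.33) log2 units higher with Vcam1 than without, and in young the differences were -0.64 (-2.09 to 0.49) and 0.57 (-1.32 to 1.95). Split by Havcr1, the kidney injury gene, Tlr2 in old was 0.84 (-0.27 to 1.78) higher with it than without, and its old over young ratio without those cells was 1.96 (1.42 to 2.51).

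**Figure D3:**
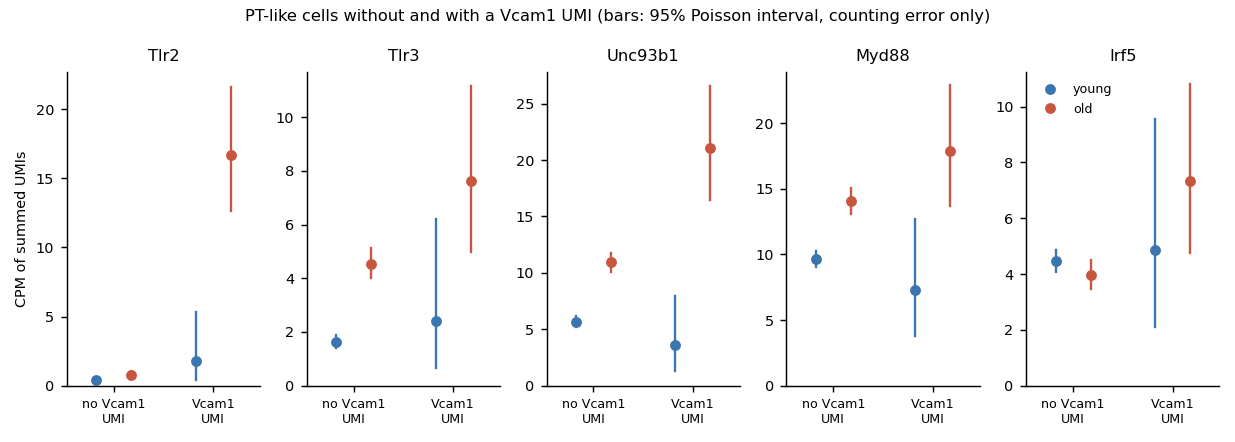
CPM of 5 members in proximal tubule-like cells without and with a Vcam1 UMI, young in blue and old in red, with 95% Poisson intervals for counting error on a linear y axis that starts at 0. Old cells with Vcam1 stand out for Tlr2 (16.7 against 0.804 CPM without), while Tlr3 is higher in old on both sides (4.54 against 1.63 CPM without Vcam1).

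Irf5 in proximal tubule-like cells differed with Slc7a13. Cells with a UMI of Slc7a13, a transporter of the late proximal tubule, held 6.41 CPM (5.82 to 7.04) in young and 5.45 CPM (4.71 to 6.28) in old, against 1.38 CPM (1.05 to 1.78) and 2.42 CPM (1.86 to 3.09) in cells without. Among cells with Havcr1, young cells held 14.2 CPM (11.5 to 17.2) and old cells 5.76 CPM (3.52 to 8.90). These splits were chosen after the values had been seen.

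Other genes of the pathway in proximal tubule-like cells were taken from lists of receptors, accessory proteins, nucleases, adaptors, transcription factors and cytosolic sensors. Of all genes in this class 7.89% were called between ages in either direction. Of the 7 cytosolic sensors, 5 had 30 UMIs and 3 of those were at least 2-fold higher in old. They were Zbp1 (0.0994 and 2.12 CPM), Ifih1, a sensor of double-stranded RNA (1.25 and 8.99 CPM, log2 ratio 2.85), and Ddx58 (9.06 and 21.3 CPM, 1.24). Irf7 rose from 1.43 to 18.4 CPM, a log2 ratio of 3.69 (3.45 to 3.94), and Irf8 from 15.8 to 38.9 CPM. Bst2, counted here as a marker of plasmacytoid cells, gave 119 of the 122 CPM of that marker list in old, where the whole list had 14.1 CPM in young, and Siglech, the defining marker, had 8 UMIs in young and 3 in old. Of the 12 accessory genes found, 10 had 30 UMIs. Among those 10, 2 were at least 2-fold higher, the lipopolysaccharide co-receptor Cd14 (1.04 and 4.70 CPM) and the protease Ctss. Tlr6, a partner of TLR2, stood at 0.163 and 0.566 CPM. None of the pathway genes with 30 UMIs in this class was at least 2-fold lower.

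In neutrophil-like cells Tlr7 stood at 22.2 CPM (12.4 to 36.6, 15 UMIs) in young and 48.3 CPM (35.5 to 64.2, 47 UMIs) in old, a log2 ratio of 1.12 (0.26 to 2.07). It fell to 0.87 with a gate of 1 marker fewer and with the mean of the cells' own CPM. The 7 conventional dendritic markers in this class summed to 296 CPM in young, led by Cd209a, and 50.35 CPM in old, led by Itgax. Their part in the Tlr7 value was not tested. All cells were also clustered without the members. In young 134 and in old 127 of the neutrophil-like cells lay in a neutrophil cluster, and 28 of the other 29 and all of the other 32 lay in monocyte clusters. The cells outside held fewer neutrophil marker UMIs (19138 against 118593 CPM in young) and more Lyz2 (13225 against 4053 CPM).

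Of the neutrophil-like cells with Tlr7, 10 of 12 in young and 20 of 27 in old lay outside the neutrophil cluster. Tlr7 stood at 6.04 CPM (0.732 to 21.8) in young and 14.8 CPM (6.39 to 29.2) in old inside the cluster, against 37.7 CPM (20.1 to 64.5) and 90.1 CPM (64.1 to 123) outside it. Irf5 showed the same contrast, with 39.3 and 27.8 CPM inside and 197 and 231 CPM outside. Unc93b1 was 0.77 (0.30 to 1.26) log2 units lower inside the cluster in young and 0.92 (0.51 to 1.34) lower in old.

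Tlr13 and Myd88 did not show this contrast. In young both were higher inside the cluster, by 1.21 (0.46 to 2.01) and 1.28 (0.45 to 2.16) log2 units. In old they differed by 0.36 (-0.15 to 0.88) and 0.22 (-0.36 to 0.81). Inside the neutrophil cluster Tlr13 stood at 148 CPM (110 to 196) in young and 157 CPM (126 to 194) in old, and Myd88 at 127 and 118 CPM, while outside it they had 63.9 and 122 CPM and 52.2 and 102 CPM. Tlr2 had 242 and 311 CPM inside and 192 and 330 CPM outside. Between ages Tlr7 differed by 1.29 (-1.03 to 4.57) inside the cluster, on 10 UMIs, and by 1.26 (0.32 to 2.29) outside it. Within the cluster Tlr13 differed by 0.09 (-0.44 to 0.63), Myd88 by -0.10 (-0.68 to 0.50) and Tlr2 by 0.36 (-0.03 to 0.77). The members and pathway genes were left out of the genes used for clustering, but the clusters come from the same cells, and these contrasts carry no test.

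**Figure D4:**
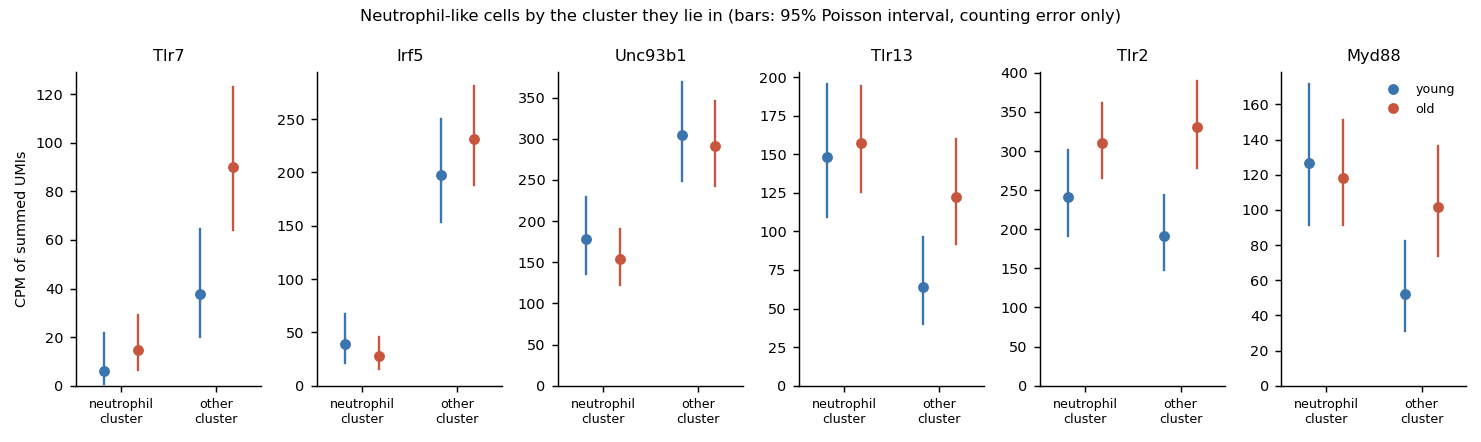
CPM of 6 members in neutrophil-like cells inside the neutrophil cluster (134 young and 127 old cells) and outside it (29 and 32 cells), young in blue and old in red, with 95% Poisson intervals and y axes from 0. Tlr7 and Irf5 are low inside (6.04 and 14.8 CPM, and 39.3 and 27.8 CPM) and high outside. In young, Tlr13 (148 against 63.9 CPM) and Myd88 (127 against 52.2 CPM) are higher inside than outside. Tlr2 is high on both sides.

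Monocyte-like cells were split into a side with UMIs of Ly6c2, Ccr2 or Chil3, genes of classical monocytes, and a side with UMIs of Ace or Treml4, genes of non-classical monocytes, leaving out cells with both or neither. The Ly6c2 side held 84 young and 75 old cells and the Ace side 20 and 134. In old, Tlr7 stood at 102 CPM (84.2 to 122) on the Ace side and 40.1 CPM (29.5 to 53.4) on the Ly6c2 side, a log2 difference of 1.35 (0.84 to 1.87). In young it was 61.7 CPM (24.8 to 127) from 7 UMIs against 32.7 CPM (21.6 to 47.6), a difference of 0.91 (-0.53 to 2.15) whose interval includes 0.

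Tlr13 was also higher on the Ace side, by 1.51 (0.21 to 2.67) in young and 0.62 (0.21 to 1.04) in old. Unc93b1 went the other way, with 229 and 248 CPM on the Ace side against 515 and 416 CPM on the Ly6c2 side, or -1.17 (-1.80 to -0.60) and -0.75 (-0.97 to -0.53) on the log2 scale. Irf5 and Myd88 differed little, with intervals that included 0 in both libraries. The receptor and its chaperone were therefore higher on opposite sides in old.

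Across all monocyte-like cells Tlr13 was 0.85 (0.47 to 1.23) and Myd88 0.75 (0.40 to 1.11) log2 units higher in old, and Unc93b1 0.31 (0.18 to 0.45) lower. The 7 conventional dendritic markers in this class summed to 231 CPM in young, led by Cd209a (178 CPM). In old they summed to 69.65 CPM, led by Itgax, and their part in the ratios between ages was not tested. Since the Ace side was larger in old, the ratios within a side are given too. Within the Ly6c2 side Tlr13 was 1.35 (0.67 to 2.08) higher in old, with 27.9 CPM in young and 70.9 CPM in old, and Myd88 0.77 (0.26 to 1.29) higher. Within the Ace side the young cells were few, and the Tlr13 ratio was 0.46 (-0.51 to 1.62). Tlr7 differed by 0.36 (-0.003 to 0.73) over all monocyte-like cells, by 0.29 (-0.42 to 1.03) within the Ly6c2 side and by 0.73 (-0.36 to 2.07) within the Ace side. In the 66 young and 87 old monocyte-like cells with genes of both sides or of neither, Tlr7 differed by -0.28 (-0.79 to 0.24) and Tlr13 by 0.20 (-0.33 to 0.75). Unc93b1 differed by -0.31 (-0.50 to -0.12) within the Ly6c2 side and by 0.11 (-0.47 to 0.75) within the Ace side. In the cells of both sides or of neither it differed by 0.04 (-0.18 to 0.27).

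**Figure D5:**
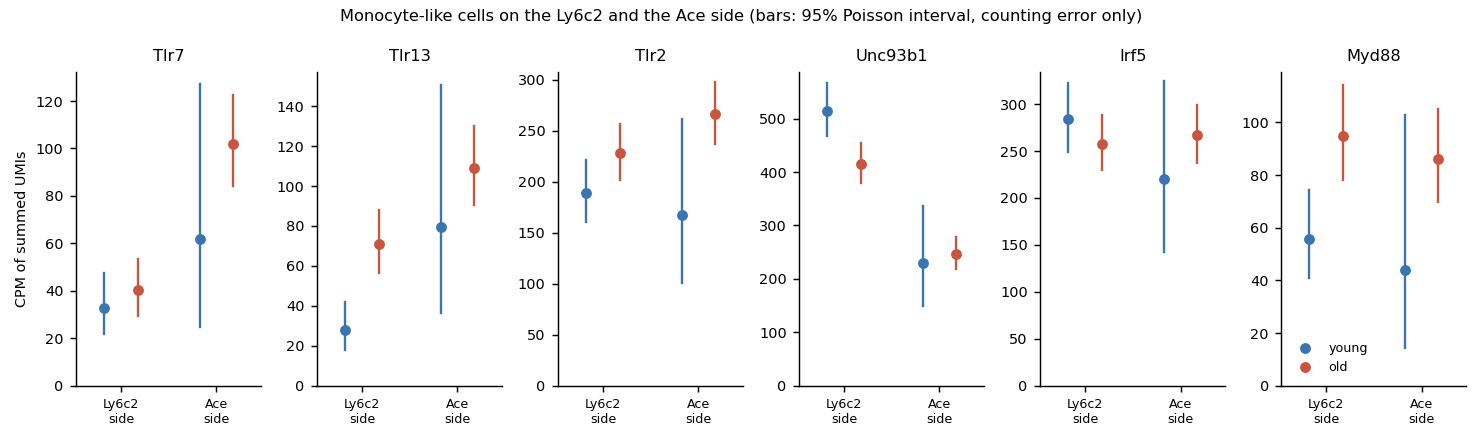
CPM of 6 members on the Ly6c2 side (84 young and 75 old cells) and the Ace side (20 and 134 cells) of the monocyte-like cells, young in blue and old in red, with 95% Poisson intervals and y axes from 0. Tlr7 and Tlr13 are higher on the Ace side in old (102 against 40.1 CPM, and 109 against 70.9 CPM), and Unc93b1 is lower there (248 against 416 CPM).

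Tlr7 in B-like cells had 5 UMIs in 4 of 340 young cells and 24 UMIs in 21 of 153 old cells. That is 3.62 CPM (1.18 to 8.45) and 23.3 CPM (15.0 to 34.7), a log2 ratio of 2.69 (1.27 to 4.43), and the shares were 1.18% and 13.7%. The 29 UMIs are 1 fewer than the minimum used for a call, and after thinning to 1000 UMIs the shares were 0.298% and 1.32%, near the level of single UMIs. Median depth of the class was 3796 UMIs in young and 5800 in old. In old, cells without a UMI of Ighd, a gene of naive B cells, held 33.6 CPM (18.39 to 56.4) and cells with it 16.3 CPM (7.83 to 30.03), a difference of -1.04 (-2.37 to 0.23) with Ighd over without. The old over young ratio was 2.13 (0.34 to 4.26) with Ighd, on 4 young and 10 old UMIs. It was 3.36 (0.65 to 8.77) without Ighd, on 1 and 14 UMIs. Monocyte markers in the B-like class summed to 567 CPM in young and 1298 CPM in old, led by Plac8, and to 119.5 and 664 CPM without it. Chil3 and Treml4 were at 0 in both libraries, and Ccr2 and Fcgr1 were at 0 in old. The defining genes Lyz2, Fcgr1 and Treml4 together had 15 UMIs in young and 6 in old. The part of these markers in the Tlr7 value was not tested. Irf5 moved the other way in B-like cells, by -0.63 (-1.001 to -0.26), and Unc93b1 by 0.32 (0.14 to 0.49).

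Irf5 in T-like cells had 42 UMIs in young, which is 11.3 CPM, and 101 UMIs or 4.43 CPM in old, a log2 ratio of -1.35 (-1.88 to -0.79). The young and old values were 11.9 and 7.65 CPM with Cd4, 4.77 and 1.29 CPM with Cd8, and 14.5 and 4.22 CPM without either coreceptor. Of these 3 ratios, that without coreceptors, -1.78 (-2.55 to -0.99), had an interval apart from 0. T cells that make neither coreceptor are known to accumulate with the lpr mutation. The cells without either here, 353 in young and 1694 in old, were set only by the absence of Cd4, Cd8a and Cd8b1 UMIs. At median class depths of 4936 and 4817 UMIs a coreceptor can be missed, so this group need not be that population. The 8 ILC2 markers summed to 972 CPM in the young T-like class and 269 CPM in the old one, led by Rora, and their part in the Irf5 value was not tested. With classes taken from clusters the ratio was -0.80, below 2-fold.

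Unc93b1 was higher in old T-like cells by 0.92 (0.53 to 1.34). The cells without a coreceptor UMI had 20.1 CPM (14.3 to 27.5) in young and 49.4 CPM (44.5 to 54.6) in old. In old they stood above cells with Cd4 (19.7 CPM) and with Cd8 (17.9 CPM). ILC2-like cells had a similar ratio, 0.94 (0.47 to 1.41). In plasmacytoid dendritic-like cells Unc93b1 differed by 0.05 (-0.15 to 0.25) and Tlr7 by -0.25 (-0.82 to 0.30).

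For the X-linked receptors, cells with Xist and no Y-linked UMI were set against cells with Y-linked and no Xist UMIs within a library. Tlr7 in monocyte-like cells stood at 46.6 and 50.5 CPM in young, a log2 difference of -0.12 (-1.13 to 0.80) Xist over Y, and at 67.4 and 70.1 CPM in old, a difference of -0.06 (-0.49 to 0.37). In old plasmacytoid dendritic-like cells it was 90.6 and 99.9 CPM, or -0.14 (-1.13 to 0.79), and in old B-like cells 17.5 and 32.4 CPM, or -0.89 (-2.35 to 0.47). The macrophage-like values were 1.21 (-0.53 to 2.95) in young and 0.86 (-0.59 to 2.38) in old. Each of these Tlr7 intervals included 0, and each but that of old monocyte-like cells also reached 2-fold in at least 1 direction. Tlr13 in monocyte-like cells differed by 0.24 (-0.80 to 1.19) in young and 0.36 (-0.03 to 0.74) in old. Mice of the 2 kinds were not labelled, so these values compare cells and not animals. The autosomal Unc93b1 was 0.86 (0.57 to 1.17) higher in old macrophage-like cells with Xist, at 785 against 431 CPM.

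Within single cells Irf5 went with Tlr7 in the neutrophil-like class, where it was seen in 83.3% of young and 81.5% of old cells with a Tlr7 UMI and in 17.2% and 13.6% of the rest. The cells with Tlr7 were deeper, as those outside the neutrophil cluster had medians of 9738 and 13350 UMIs against 2200 and 3370 inside. In monocyte-like cells Irf5 was seen in 88.9% of young cells with Tlr7 and 88.8% of the others, and in 89.3% and 79.5% in old. Tlr13 was seen in 38.9% of young and 66.4% of old monocyte-like cells with Tlr7 and in 27.6% and 46.2% of the others.

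Over 24 points, each a class in 1 library, the gene most like Tlr13 among 12968 genes was Il1b (Pearson r of log levels 0.99), followed by Clec4a2, Gpr141, Treml4 and Gm34084. For Tlr2 it was also Il1b (0.95), with Tlr13 in second place (0.94). Tlr7 went most closely with Cybb (0.93), a subunit of the phagocyte oxidase, and Unc93b1 with Plekhm3 (0.93). Slc15a4, a transporter of the endolysosome, was among the first 5 for Unc93b1 (0.91). The points share libraries and depths and several are subsets of related cells, so the values describe likeness only. Tlr4, Tlr8 and Tlr9 had fewer than 100 UMIs in at least 1 library.

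Of the pathway lists, the genes that follow were chosen after their values were seen, for being highest in the same class in both libraries or in dendritic-like cells. Pld4, an endosomal exonuclease, stood at 824 and 867 CPM in plasmacytoid dendritic-like cells, its highest class in both libraries. Cnpy3 (125 and 138 CPM), which folds Toll-like receptors, Slc15a4 (156 and 119.5 CPM), Cd180 (222 and 189.6 CPM) and Irf8 (3445 and 3851 CPM) were also highest there in both. Tlr11, which binds profilin, was highest in young conventional dendritic-like cells at 79.2 CPM (59.0 to 104), and Tlr12 in macrophage-like cells at 79.4 and 33.3 CPM. In ILC2-like cells the inhibitors Tnfaip3 (1062 and 1350 CPM) and Nfkbia (2847 and 2760 CPM) and the transcription factor Nfkb1 (1042 and 1092 CPM) had their highest levels of all classes in both libraries.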

How the data were processed

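Single-cell RNA libraries (10x Genomics 3′ chemistry, v3.1) of 1 young and 1 old kidney pool were processed by the authors with Cell Ranger against mm10 and deposited as raw counts of UMIs per gene and barcode, not normalized. The study's own filters (200 genes or more, no more than 20% of UMIs mitochondrial) were applied to the barcodes. Classes were set by marker genes, cells passing more than 1 gate were held apart as mixed, and doublet calls (Scrublet, 2.87% of young and 2.40% of old cells) were kept in the main values and left out in an alternative. UMIs were summed per class and library. Intervals were exact Poisson (levels), Clopper-Pearson (shares) and exact binomial (ratios), at 95%. A count of 0 was given the limit of 3 counts. Shares were also computed after thinning cells to 1000 UMIs. With 1 library per age no test was made, and a call means at least 2-fold with 30 UMIs. The ratio code was tested on simulated data. Clusters came from the Leiden method in scanpy 1.11.5. Alternatives covered the gate, filters, doublets, the total, the mean of cells, thinning and sex genes. The members and lists were chosen with earlier results of these data known, and the gate rule and the splits by Vcam1, Havcr1, Slc7a13, Ptprc, Xcr1, Ighd, coreceptor, monocyte side and cluster after values had been seen. Named genes were the 10 members, the genes of the pathway lists at least 2-fold apart, and the 5 genes most like each member. Other pathway genes named in the text were chosen after their values were seen. The genes most like Irf5 are not reported here.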

Additional observations from a re-analysis of the deposited data

Results flagged for a closer look

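Unc93b1 moved in opposite directions between ages in different classes. The log2 ratio of old over young was -0.2562 in macrophage-like and -0.3127 in monocyte-like cells, against 1.023 in proximal tubule-like cells. The intervals of these ratios did not overlap, and the difference was not tested, since each age was 1 library. Of the 46 old macrophage-like cells 40 lay in monocyte clusters. Within the macrophage cluster (69 young and 6 old cells) the ratio was 0.63 (0.10 to 1.12). In the other macrophage-like cells it was -0.07 (-0.47 to 0.36). Among monocyte-like cells the ratio was -0.31 (-0.50 to -0.12) on the Ly6c2 side and 0.11 (-0.47 to 0.75) on the Ace side. In the monocyte-like cells on neither side it was 0.04 (-0.18 to 0.27).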

How the results depend on the processing

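No called old over young ratio changed direction under an alternative in which it could be computed. Ratios of all pairs that could be computed numbered 19 in cells with Xist alone and 38 with classes from clusters. The direction of differences between classes was not checked. The class with the highest level was the same as in the main values for 3 of the 10 members in young and 2 in old when cells with Xist alone were used, and for 6 in young with Y-linked UMIs alone, where fewer classes reached 20 cells. It was the same for 7 to 10 members under the other alternatives, the lowest count being with classes from clusters in young. Differences of at least 2-fold between classes numbered 15, and 4 in cells with Xist alone. Pairs of member and class at least 2-fold apart between ages numbered 5, with 4 to 7 under the alternatives. Tlr2 in proximal tubule-like cells had a ratio of 0.71 in cells with Xist alone and 2.53 with Y-linked UMIs alone. The share of plasmacytoid dendritic-like cells with Tlr7 in young was 16.4% at 1000 UMIs, 6.76% at 500 and 51.4% without thinning, and in old 6.98% and 54.5% without thinning. For Unc93b1 in ILC2-like cells it was 2.27% in young (1.04% at 500 UMIs, 9.30% without thinning) and 2.45% in old (6.43% at 2000 UMIs, 17.9% without thinning), so shares depend on depth and levels in CPM were compared instead. No paired analysis was possible because each age was 1 library, and no library could be left out. Tlr4, Tlr8 and Tlr9 were limited by their few UMIs.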

Other observations

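The 3647 young and 2390 old barcodes left out by the filters held 3 and 1 Tlr7 UMIs. Unc93b1 stood there at 10.3 CPM in young and 12.8 CPM in old.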
